A study of Mus musculus with 2 samples.

Results

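Methylation of CpG cytosines was followed at 9 genes of hepatic fat synthesis, Fasn, Srebf1, Acaca, Acacb, Scd1, Gpam, Pklr, Mlxipl and Elovl6, in 1 liver library from an untreated mouse group and 1 from a fasted group. Members were all CpG cytosines that had 5 reads or more in each library and lay inside the RefSeq span of each gene (mm10) or within 5 kb of either end. This rule kept 2086 cytosines of the 3247 that either library listed there, and of 2466496 autosomal cytosines that met the same minimum. Both groups were CD-1 mice, an outbred stock, aged 12 weeks. The control group was untreated and the other was fasted for 12 hr. DNA was cut with TaqαI and MspI, 2 restriction enzymes whose sites contain a CpG, and sequenced after bisulfite treatment (reduced representation bisulfite sequencing), which reads an unmethylated cytosine as thymine. The labels do not say how many mice each library holds. With 1 library per group the difference has no replicate check: every p below compares the reads of these 2 libraries, not the conditions. RNA is not analysed here, so the fall in transcription of these genes on fasting is background.

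In the fed liver, insulin and glucose turn carbohydrate into fat. Insulin acts through SREBP-1c, a product of Srebf1, and glucose through ChREBP, the product of Mlxipl, and both transcription factors switch on the enzymes of the pathway, an activity that fasting withdraws. Pyruvate kinase (Pklr) completes glycolysis, the acetyl-CoA carboxylases (Acaca, Acacb) make malonyl-CoA, fatty acid synthase (Fasn) builds palmitate, Elovl6 lengthens it, Scd1 adds a double bond and Gpam joins the first fatty acid to glycerol 3-phosphate.

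The starts of these genes carry the promoters through which that switch works. Of the 7 promoters with measured CpGs, the outer Srebf1 and inner Gpam starts are given below as levels only. The other 5 are shown. Each is the 250 bases before an annotated RefSeq start (GRCm38.p6, mm10), written 5′ to 3′ on the gene's strand, and capitals mark CpGs with a measured cytosine on either strand.
Fasn, chr11:120824548-120824797, minus strand: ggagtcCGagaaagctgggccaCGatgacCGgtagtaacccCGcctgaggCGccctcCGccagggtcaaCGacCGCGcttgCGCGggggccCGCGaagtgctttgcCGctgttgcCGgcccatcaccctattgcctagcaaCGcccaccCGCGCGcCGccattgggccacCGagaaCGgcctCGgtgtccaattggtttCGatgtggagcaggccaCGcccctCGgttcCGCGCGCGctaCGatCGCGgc
Srebf1, internal start, chr11:60210472-60210721, minus strand: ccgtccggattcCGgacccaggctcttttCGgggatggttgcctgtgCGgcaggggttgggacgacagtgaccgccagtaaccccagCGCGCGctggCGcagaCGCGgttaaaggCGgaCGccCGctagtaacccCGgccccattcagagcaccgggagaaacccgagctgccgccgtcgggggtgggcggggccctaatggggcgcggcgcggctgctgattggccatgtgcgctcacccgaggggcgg
Mlxipl, chr5:135089640-135089889, plus strand: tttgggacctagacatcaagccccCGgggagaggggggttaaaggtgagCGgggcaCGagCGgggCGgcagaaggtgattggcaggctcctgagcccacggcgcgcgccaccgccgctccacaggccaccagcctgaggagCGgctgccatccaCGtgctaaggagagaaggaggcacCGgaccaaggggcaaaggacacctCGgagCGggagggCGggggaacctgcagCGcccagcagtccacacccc
Pklr, chr3:89136373-89136622, plus strand: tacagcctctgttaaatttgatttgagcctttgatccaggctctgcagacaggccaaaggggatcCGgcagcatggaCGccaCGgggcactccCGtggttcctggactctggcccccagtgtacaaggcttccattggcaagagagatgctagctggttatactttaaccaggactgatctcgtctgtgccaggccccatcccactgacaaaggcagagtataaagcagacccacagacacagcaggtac
Gpam, chr19:55127239-55127488, minus strand: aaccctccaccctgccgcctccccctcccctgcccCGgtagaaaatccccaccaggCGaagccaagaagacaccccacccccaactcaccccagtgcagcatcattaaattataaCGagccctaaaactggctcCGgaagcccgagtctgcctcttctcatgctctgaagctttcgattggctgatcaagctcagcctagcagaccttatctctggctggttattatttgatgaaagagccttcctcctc

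In Fasn all 33 CpGs of the 250 bases were measured. The methylation level, the share of a cytosine's reads that were methylated, averaged 0.201% (control library) and 0.402% (fasted library) over 66 cytosines of the window from 250 bases before to 50 after the start. Summed over these cytosines, 3 of 1539 control reads and 7 of 1712 fasted reads were methylated. A read that covers several cytosines is counted at each of them in such sums. The internal Srebf1 start averaged 0.278% and 0% over 24 cytosines. Its 0 of 260 summed fasted reads allow a share of up to 1.15% if each count is an independent draw. Counts from one read are not independent, so this limit can be too low. The outer Srebf1 start (chr11:60222532-60222831) was at 1.08% and 1.00% over 25 cytosines. Both measured starts of this gene were almost free of methylation in both libraries. Mlxipl was at 1.30% and 1.06% over 17 cytosines, and the inner Gpam start (chr19:55099428-55099727) at 1.86% and 2.38% over 45.

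Pklr and the outer Gpam start had the highest levels among the 7 promoter windows with at least 3 measured cytosines. Pklr averaged 11.1% (control) and 21.8% (fasted) over 10 cytosines, of which 6 were higher and 3 lower. The difference was 10.6 points (interval −1.42 to 22.7) and did not pass Fisher's exact test (adjusted p = 0.421, Benjamini-Hochberg over all promoter windows). Gpam averaged 7.77% and 20.4% over 6 cytosines, all 6 higher in the fasted library; the libraries differed by 12.7 points (interval 2.26 to 23.0; adjusted p = 0.211 by Fisher's exact test). These intervals, like all below, are for 95% and treat every read at every cytosine as an independent draw. PCR copies and neighbouring cytosines on one read are not independent, so the intervals can be too narrow even for counting error. None of the 7 windows was called, that is, had an adjusted p under 0.05 with a difference of at least 10 points; the background was 0.7% of 11858 windows, and 1.72% were at least 10 points higher whatever their p.

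The Pklr sequence contains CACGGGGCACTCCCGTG at chr3:89136453-89136469, which begins 170 bases before the start and holds the paired E-box parts of the classical carbohydrate response element, the site bound by ChREBP in this gene. The pattern of CACG and CGTG with 9 free bases (N) between them, searched on both strands, was in 92 of 32851 RefSeq promoters of the same length (0.280%), and among the 13 windows of the genes described here only in this one. Its 4 measured cytosines averaged 12.5% (control) and 16.9% (fasted), from 30 and 36 reads summed. The strands went opposite ways. On the plus strand, with 9 control and 8 fasted reads, its 2 cytosines were at 0% (control), against 25% and 12.5% (fasted). On the minus strand, with 6 and 10 reads, they were at 33.3% and 16.7% (control), against 20% and 10% (fasted). A difference at this element was not detectable at this depth.

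Of the other motifs searched on both strands, the sterol regulatory element TCACNCCAC (in 1.24% of all promoters) matched once, in an inner Mlxipl start, where no cytosine was measured. The E-box CACGTG (7.15%) matched once, in the Mlxipl sequence shown, where its 1 measured cytosine had 1 methylated read of 33 (control) and 0 of 31 (fasted), and the latter allows a share of up to 9.68%. The CCAAT box was in 7 of the 13 windows (37.4% of all promoters) and the GC box GGGCGG in 4 (35.7%). The cutting sites CCGG (MspI) and TCGA (TaqαI) were in 9 (52.8%) and 2 (22.0%).

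**Figure D1:**
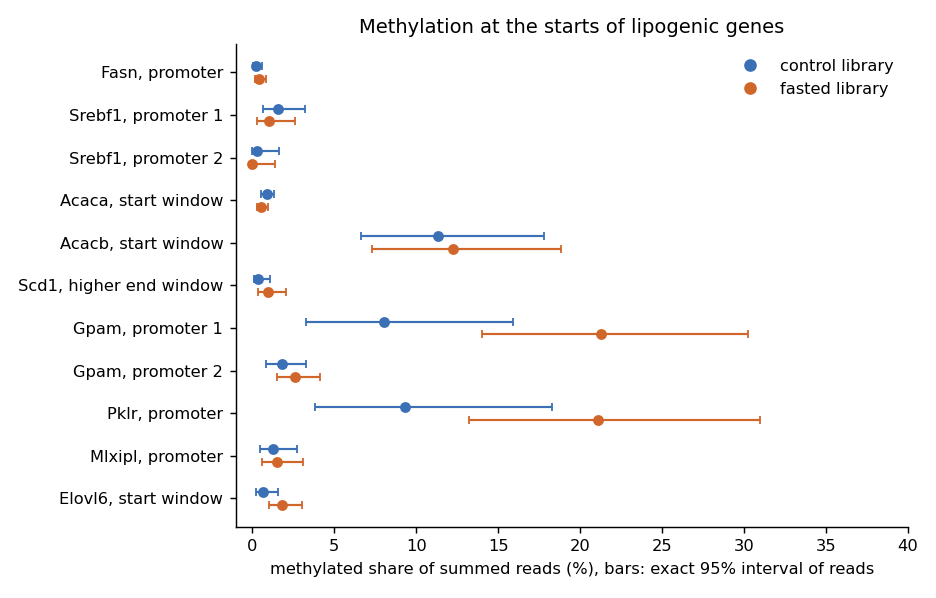
Methylated share of the summed reads (x axis, %) at the start of each gene in the control (blue) and fasted (orange) library, with exact (Clopper-Pearson) 95% intervals; Srebf1 and Gpam have 2 measured promoters, and where no promoter window was measured the gene's end window is drawn. Most starts lie near 0 in both libraries, and the outer Gpam and the Pklr promoter are higher in the fasted library, with overlapping intervals.

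The ends of each gene were also measured in wider windows, from 1000 bp outside to 500 bp inside the span. Of the 18 end windows of the 9 genes, 8 had at least 5 cytosines, and 0 were called (background 1.76% of 24572 end windows). All 8 were at the start of the gene span, or, for Scd1, whose strand was not used, at the higher-coordinate end. The annotated promoter starts of Acaca (chr11:84195438) and Acacb (chr5:114165518) lie inside their spans, and no cytosine of those promoters was measured. The nearest clusters, 5216 and 3383 bp away, were at 93.6% and 97.8% (Acaca, control and fasted) and 77.3% and 83.0% (Acacb). Acaca was at 0.965% and 0.735% over 104 cytosines of a start it shares with the neighbouring gene Tada2a. Elovl6 was at 1.01% and 1.64% over 22, Fasn at 0.847% and 1.12% over 64 and Scd1 at 0.617% and 0.531% over 26. Acacb, which supplies malonyl-CoA at the mitochondrial surface, had a start that was not free of methylation, at 14.4% (control) and 10.9% (fasted) over 7 cytosines. Far ends could hardly be read: Acacb had 4 cytosines there (95% and 93.8%) and Srebf1 had 1 (6 of 9 reads against 2 of 11), and the other genes had none.

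Unmethylated blocks lay at or near the starts of Fasn, Srebf1, Acaca, Scd1, Mlxipl and Elovl6. A cluster is a run of at least 3 cytosines with neighbours at most 100 bp apart. Of the 166 clusters at these genes, 22 were below 10% in both libraries (13.25%, against 15.04% of all autosomal clusters). Acacb had 0 such clusters, the 2 of Pklr lay outside the gene, and the 1 of Gpam was around its inner start. The 22 clusters held 945 cytosines. Among them the largest rise was 1.52 points and the largest fall 2.59 points, without regard to a test. The widest, at Fasn (chr11:120823481-120825076), held 283 cytosines at 0.758% and 0.919%. Such blocks also lay far inside genes. Acaca had 5 clusters about 50 kb inside its span with at most 0.824% in either library. Gpam had 112 cytosines at 5.44% and 6.33% around its inner start, and Mlxipl had 32 at 0.712% and 2.23% beside an inner start. Another 80 clusters were at 80% or more in both libraries.

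Gene bodies, the stretch between the end windows, differed widely among the genes. Their mean cytosine levels differed by less than 2 points between the libraries, except at Scd1. Srebf1 was lowest, at 18.3% and 20.2%, with Fasn at 24.6% and 22.7% and Gpam at 28.7% and 28.0%. Mlxipl (40.6% and 40.1%), Acaca (40.9% and 40.1%) and Elovl6 (55.6% and 54.0%) were intermediate. Pklr was at 74.5% and 75.8% and Acacb at 77.2% and 76.3%. The unmethylated start blocks reach into the body of some genes and enter these means. The flanks, from 1000 to 5000 bp outside, had 6 measured windows and 0 calls (background 1.92%).

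The Scd1 body fell from 89.6% in the control to 75.3% in the fasted library. Of its 43 cytosines 26 were lower and 11 higher, and the difference of −14.3 points passed Fisher's exact test on summed reads (adjusted p = 2.33e-08, Benjamini-Hochberg over all gene bodies). It was the 1 body called of 9, against a background of 1.46% of 22323 bodies, or 0.811% counting those that were lower. Of 5349 bodies with a like number of cytosines, 9 (0.168%) had a difference as low. Neighbouring cytosines can lie on one read: when the reads were divided by the number of cytosines, the call was lost (adjusted p = 1, Fisher's exact test), and with at least 20 reads required the body had too few cytosines to be tested.

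Averaged over the whole locus with its flanks, Scd1 was again the gene farthest from 0. Its 75 cytosines averaged 58.5% (control) and 50.7% (fasted), a difference of −7.80 points (interval −10.9 to −4.67). Of 5403 protein-coding loci of like size, 25 (0.463%) were as low. Weighting each read equally gave −0.472 points and requiring 20 reads gave 0.0671; the unmethylated higher end of Scd1 held 816 of the 1433 control reads and 641 of the 1266 fasted reads. The other 8 loci differed by −1.30 (Elovl6) to 1.47 points (Srebf1), each inside the 5th to 95th percentile of loci of like size. For Fasn the difference was −1.26 points (interval −2.23 to −0.293), which became −0.0443 with each read weighted equally. Under that weighting the small differences of Acaca, Elovl6, Mlxipl and Pklr changed sign (1.36, 1.40, 2.38 and −0.722 points).

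**Figure D2:**
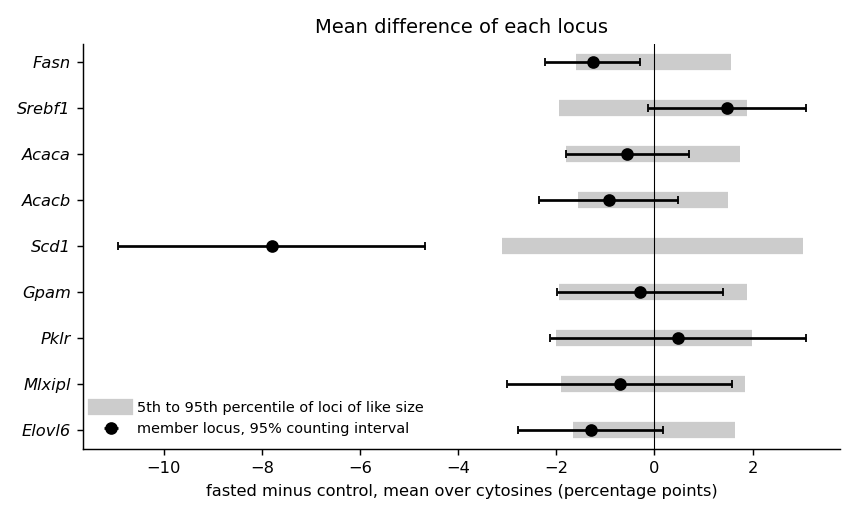
Mean fasted minus control difference over the cytosines of each locus (x axis, percentage points; points with 95% counting intervals) and the 5th to 95th percentile of protein-coding loci with a like number of cytosines (grey bars). Scd1, at −7.80 points, lies outside its bar and the other 8 loci inside theirs.

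The clusters that passed the test lay inside the genes, as did most of the clusters tested there. Most that passed were lower in the fasted library. Of the 166 clusters, 6 were called, 5 lower and 1 higher in the fasted library (3.61%), against 1.36% of 223945 autosomal clusters (0.649% lower, 0.711% higher). Whatever their p, 20 clusters were at least 10 points lower and 12 at least 10 points higher, against 8.8% and 9.53% of all clusters. Among the 46 clusters with a mean level of 20 to 80%, 4 were called (8.70%), against 3.14% of all such clusters. Every cytosine pointed the same way in 16 clusters (9.64%), against 8.59% of all clusters. The counts are small, and when reads were divided by the number of cytosines in a cluster none of the 6 kept its call (adjusted p = 1 for each, Fisher's exact test).

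Fasn held 2 of the called clusters. At chr11:120821673-120821840, 3.33 kb inside the start, 8 cytosines averaged 43.9% (control) and 12.4% (fasted), and all 8 were lower. The difference was −31.5 points (interval −41.5 to −21.5; adjusted p = 9.79e-06 by Fisher's exact test over all clusters). Both strands fell, from 34.2% to 13.6% on the plus and from 53.6% to 11.1% on the minus strand, and the reads per cytosine were nearly constant, 14 to 20 (control) and 15 to 22 (fasted). The cytosine with the largest fall of the locus lies here (position 120821712), at 10 of 14 reads against 2 of 16, and did not pass by itself (adjusted p = 0.896 by Fisher's exact test). The second cluster, chr11:120810912-120810975, 14.2 kb inside, averaged 91.8% and 72.7% over 12 cytosines, of which 11 were lower and 1 higher (adjusted p = 1.75e-05, Fisher's exact test). Within it the 3 cytosines at the higher-coordinate side were farthest apart, at 86.7%, 75% and 100% (control) against 50%, 35.7% and 46.7% (fasted). Depth changed within this cluster on both strands. The outer cytosines had 12 to 15 reads (control) and 14 to 20 (fasted), the middle ones 24 to 30 and 30 to 40. Only middle cytosines met a minimum of 20 reads, where the call remained. Whether molecules were counted more than once in the middle was not tested. The 2 Fasn clusters were the calls that remained when all read counts were halved.

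Scd1 held 2 others, both with fewer reads. At chr19:44404753-44404786, 2.92 kb inside the higher end, 3 cytosines averaged 76.4% and 24.4% from 22 and 41 reads, and all 3 were lower (−52.0 points, interval −74.8 to −29.3; adjusted p = 0.0156 by Fisher's exact test). At chr19:44402196-44402409, 6 cytosines averaged 94.2% and 70.1% (adjusted p = 0.0364, Fisher's exact test), 5 lower and 1 higher. Both calls were lost when the reads at each cytosine were thinned at random to the depth of the library shallower there (adjusted p = 0.125 and 0.0722, Fisher's exact test). Another stretch, chr19:44397801-44397832, was at 86.6% and 64.7% and did not pass (adjusted p = 0.225, Fisher's exact test). These 3 clusters lie in the Scd1 body and are part of its fall given above, not separate results. The other clusters of the body differed by −8.89, −2.76 and −6.90 points and were not called.

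Mlxipl had a called cluster at chr5:135133201-135133305, 43.3 kb inside, where 4 cytosines of the minus strand averaged 89.3% and 41.7%, all 4 lower, from 7 control and 9 fasted reads at each (adjusted p = 0.00973 by Fisher's exact test). The next clusters pointed the other way: 7 cytosines from position 135133636 were at 52.4% against 81.0% (Fisher's exact test, adjusted p = 0.278) and 7 from position 135133783 at 61.9% and 71.0%. Clusters with opposite signs thus lay within 1 kb of each other. The largest fall of a single cytosine at any of the 9 genes with at least 10 reads was also in Mlxipl, at position 135114140, where 14 of 14 control reads and 3 of 13 fasted reads were methylated (adjusted p = 0.0543 by Fisher's exact test). Halving the reads ended the cluster's call (adjusted p = 0.391, Fisher's exact test).

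Acacb held the 1 cluster called higher. At chr5:114199513-114199713, 53.2 kb inside, 10 cytosines averaged 54.8% and 70.6%, 8 higher and 2 lower (15.9 points, interval 4.18 to 27.5; adjusted p = 0.0377 by Fisher's exact test). Most of the rise came from 2 plus-strand cytosines, at 15.8% and 26.3% (control) and both at 77.3% (fasted); the first of them is the largest rise of the locus. Within this cluster the reads per cytosine ranged from 10 to 44 (control) and from 6 to 52 (fasted). Whether molecules were counted more than once was not tested here either. The call was lost on thinning (adjusted p = 0.0701) and when the gap allowed was 200 bp (adjusted p = 0.0554, both by Fisher's exact test).

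Acacb also held the 1 single cytosine called among the 2086 (background 0.0548%; a call needed 25 points). On the minus strand at position 114176031 of chr5, 29.7 kb inside, 60% of 20 control reads (interval 36.1 to 80.9) and 5% of 40 fasted reads (0.611 to 16.9) were methylated (adjusted p = 0.0143 by Fisher's exact test over all cytosines). Its partner on the other strand was at 31.8% of 44 reads and 11.1% of 36. The 32 cytosines around them averaged 15.1% and 9.58% (adjusted p = 0.00642, Fisher's exact test), 17 lower and 10 higher, a difference under the 10 points a call needed. Thinning to equal depth, or halving the reads, left no called cytosine. The cluster of Acacb with the largest difference, at 81% and 60% over 5 cytosines from position 114174986, all 5 lower, did not pass (adjusted p = 0.598 by Fisher's exact test).

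In the remaining genes no cluster was called. Gpam came nearest at chr19:55103809-55103836, with 36.2% and 13.4% over 3 cytosines, all lower (adjusted p = 0.174 by Fisher's exact test), and it passed when gaps of 200 bp were allowed (adjusted p = 0.0278). Srebf1 had 2 neighbouring clusters with higher values in the fasted library, 40.7% and 54.2% over 15 cytosines and 74.8% and 88.8% over 4, neither passing (adjusted p = 0.268 and 0.309, Fisher's exact test). For Elovl6 the largest difference was 47.2% against 26.3% over 4 cytosines (adjusted p = 0.243, Fisher's exact test), and for Acaca 80.2% against 87.7%. For Pklr it was 90.7% against 72.9% over 3 cytosines that lie in the neighbouring gene Hcn3.

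Single cytosines with at least 10 reads showed the spread within each locus, flanks included. The largest rise per locus ran from 20 points at Scd1, outside the gene span, to 61.5 points at Acacb. That of Pklr, 52.7 points, lay in the neighbouring gene Hcn3. The largest fall ran from 28.6 points at Srebf1 to 76.9 points at Mlxipl. Srebf1 had 6 of 15 methylated reads (control) and 13 of 15 (fasted) at position 60200485. Elovl6 had 9 of 10 and 4 of 11 at position 129552027, and Acaca 11 of 12 and 7 of 16 at position 84138138. At Gpam position 55099088 the reads were 4 of 14 and 10 of 15, within the block around its inner start that averaged 5.44% and 6.33%. None of these 4 cytosines passed (adjusted p = 1 for each by Fisher's exact test).

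**Figure D3:**
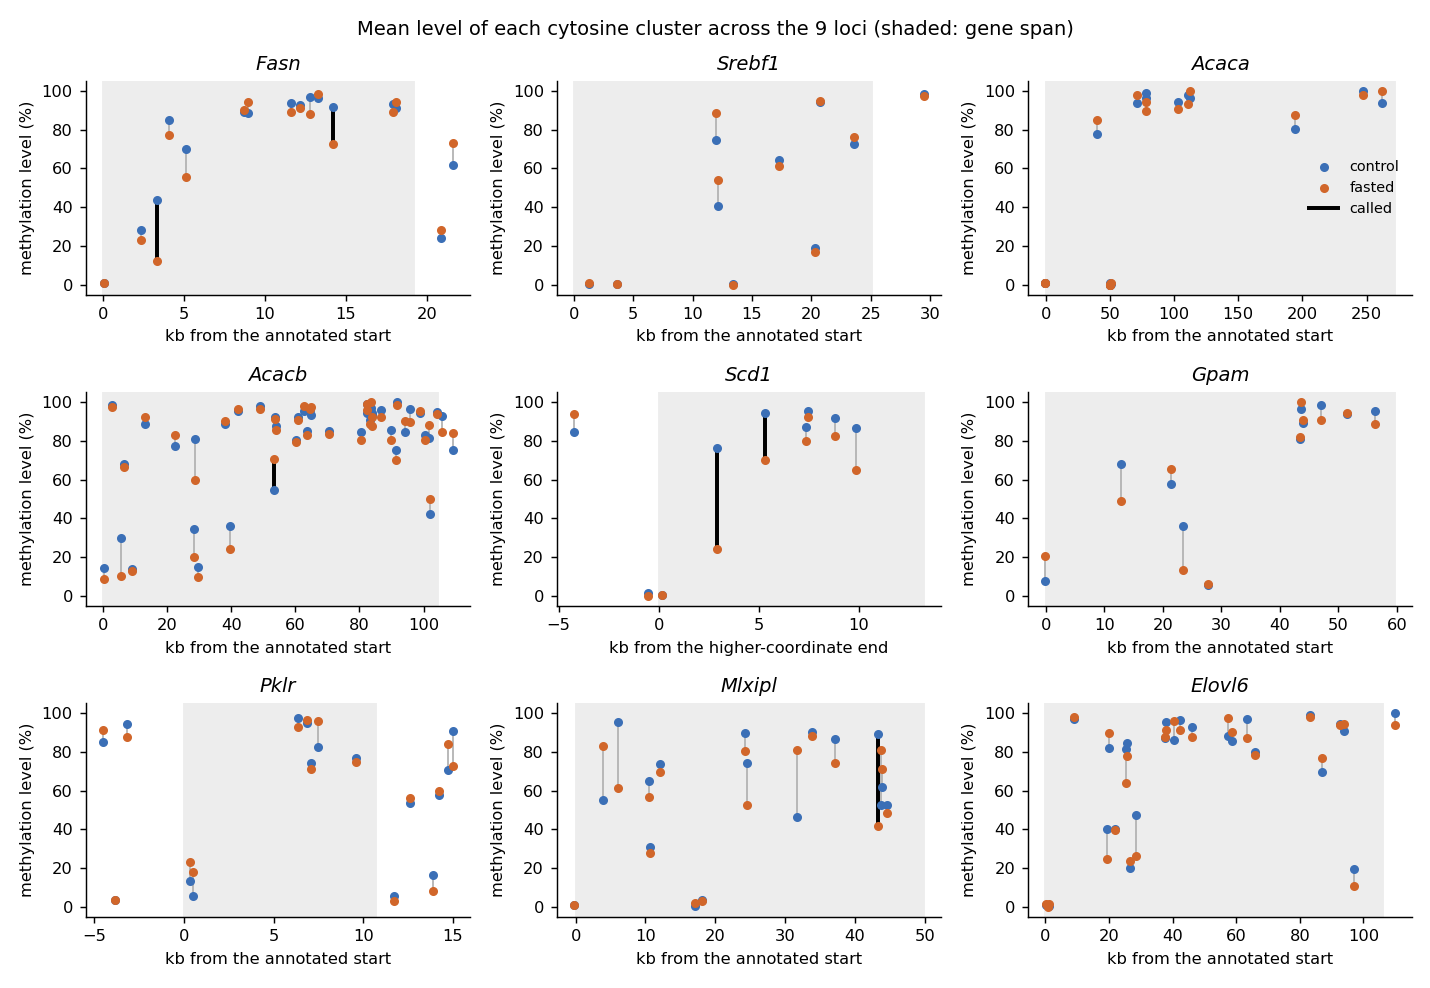
Mean methylation level (y axis, %) of each cluster of cytosines in the control (blue) and fasted (orange) library against its distance from the start of the gene (x axis, kb), with the gene span shaded and called clusters joined by black lines. Starts lie near 0 in most genes, and the 6 called clusters are inside Fasn, Acacb, Scd1 and Mlxipl.

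**Figure D4:**
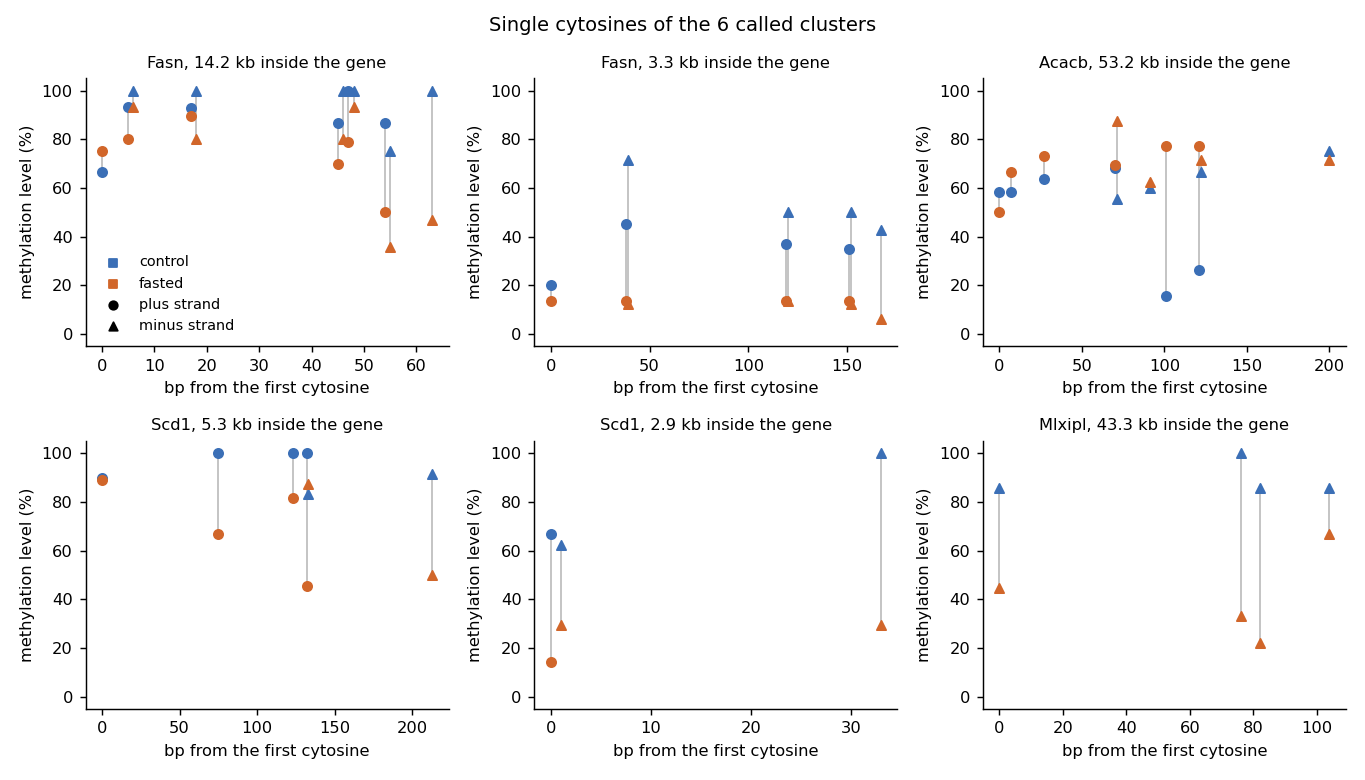
Methylation level (y axis, %) of the single cytosines of the 6 called clusters against their distance from the first cytosine (x axis, bp), by library (colour) and strand (circle, plus; triangle, minus). All 8 cytosines of the Fasn cluster at 3.33 kb are lower in the fasted library, while in the Acacb cluster 2 cytosines carry most of the rise.

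**Figure D5:**
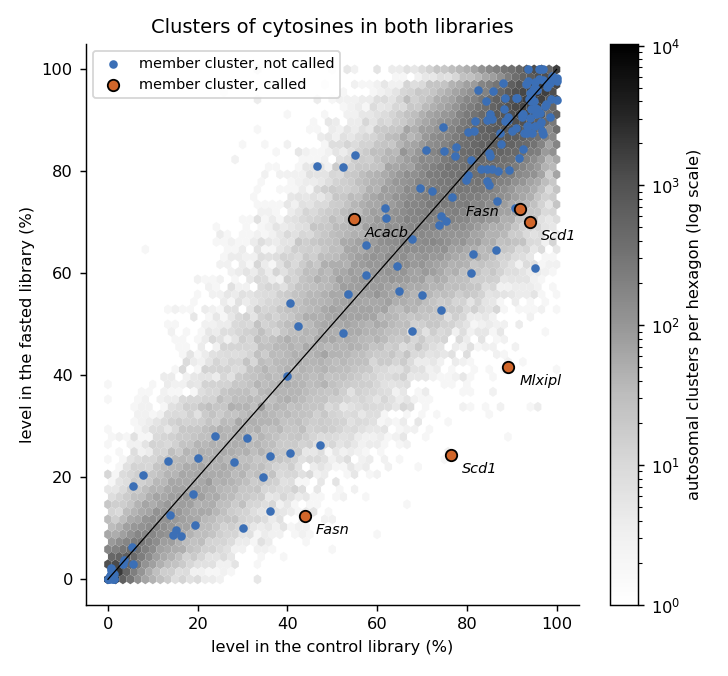
Level of each cluster in the control (x axis, %) and fasted (y axis, %) library for the 166 clusters of the 9 genes (points) over all autosomal clusters (grey, log scale). The 5 called lower clusters lie below the diagonal and the 1 called higher cluster, in Acacb, above it.

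Single cytosines varied as much between the strands of one CpG as between the libraries. Over 755 CpGs of these genes with both strands measured, the strands differed by 6.16 points on average (control) and 5.79 (fasted), and the libraries by 6.42 points on the plus and 6.55 on the minus strand. Among the 2086 cytosines 590 were higher, 622 lower and 874 equal in the fasted library. The mean was 41.8% and 41.0%, and 8.29% differed by at least 25 points, against 7.41% of all autosomal cytosines. Those that just met the minimum, with 5 reads in the shallower library, numbered 157 and averaged 71.4% and 71.0%; the 154 just below it, with 4, averaged 72.0% and 68.0%.

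Of 29 other lipogenic enzymes, 23 had a measured end window, and 0 of 26 end windows were called (background 1.76%). Of 26 measured bodies 2 were called, both lower (background 0.811% of bodies called lower): Dgat2, which makes triglyceride from diglyceride (47.4% to 35.9%), and the elongase Elovl3 (62.0% to 33.9%). Of their 249 clusters, 4 were called lower and 0 called higher (1.61%, against 1.36% of all clusters), 2 of them in Elovl3, 1 in Dgat2 and 1 in Pfkl. The called Elovl3 body and 1 of its called clusters are the same 8 cytosines, and the Dgat2 cluster lies in the called body. These are therefore not separate results. The largest differences at their ends were 90.1% against 80.3% in Dgat2 and 10.6% against 4.55% in Elovl3, neither called.

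Of 27 regulators of lipogenesis 1 of 26 end windows was called (background 1.76%), the far end of Usf1, a factor that binds the Fasn promoter, which fell from 50% to 22.9% over 7 cytosines (adjusted p = 0.00285 by Fisher's exact test). That call was lost with at least 10 reads required and with the strands summed. Of 289 clusters 4 were called lower and 0 called higher (1.38%, near the 1.36% of all clusters). Of these, 2 were in Srebf2, the paralog of Srebf1 that drives cholesterol synthesis, at 22.7% and 8.05% over 39 cytosines and 46.5% and 26.3% over 18, and 1 each in Rxra and Usf1. The Usf1 cluster lies in its called end window and is not a separate result. The end window of Gckr, the glucokinase regulator, was at 30% and 16.9% and did not pass.

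In liver tissue a change in the mix of cell types and a change within cells cannot be told apart. Of 7 endothelial markers 2 had a measured end, the ends summing to 97.1 (control) and 156 points (fasted). The start of Eng was called (37.1% and 68.4%), and an end of Cdh5, at 60% and 88%, did not pass (adjusted p = 0.159 by Fisher's exact test). Of all end windows 1.76% were called, which is the background for each marker list. Of 78 endothelial clusters 4 were called (5.13%, against 1.36% of all clusters). The 3 called higher were all in Eng, 1 of them inside its called start window, and the 1 called lower was in Pecam1, at 78.8% and 53.6%. Stellate marker ends (3 measured, of 5 genes) summed to 46.6 and 67.4 points, with 1 called, in Pdgfrb (25.9% and 50.7%). The others were lower in the fasted library, Des among them at 15.9% and 12.9%, and the median difference of the 3 ends was −1.01 points. Of 39 stellate clusters 1 was called (2.56%), in Col1a1, at 92.9% and 43.5%. Hepatocyte marker ends (4 measured, of 10 genes, 0 called) ranged from 19.6% to 52.1% (control) and from 18.0% to 52.1% (fasted). Of 8 hepatocyte marker bodies 2 were called, both lower (background 0.811% of bodies called lower), Apoa2 (16.3% and 1.11%) and Fgb (34.4% and 12.2%). Of 48 hepatocyte clusters 2 were called, both lower (4.17%, against 1.36% of all clusters). They lie inside the same 2 bodies, in Fgb with 10 of the 11 body cytosines, and are not separate results. The cholangiocyte (6 ends of 4 of 5 genes) and immune (2 ends of 8 genes) lists had 0 ends and 0 clusters called, and no end of any list was at 0 in both libraries. The part of cell mix in the results above was not tested.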

How the data were processed

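Reads were demultiplexed and aligned by the authors with bcl2fastq 1.8.4 and Bismark 0.14.3 to mm10, per the submitters' processing notes. The deposited files list each CpG cytosine with its strand, a text field of methylated and total reads, and a score, which equals the methylation level on a scale of 0 to 1000 within a rounding gap of 0.5. Strands were kept apart. The control library listed 4111027 cytosines (49253627 reads over cytosines, median 8 per cytosine) and the fasted library 4110421 (51276705, median 9). At 5 reads a level moves in steps of 20 points, so single cytosines are imprecise.

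Reads were compared by two-sided Fisher's exact test per cytosine, cluster, gene part and promoter window, with Benjamini-Hochberg adjustment over all autosomal features of that kind (Python 3.11.15, scipy 1.17.1). Calls needed an adjusted p under 0.05 and 25 points (cytosines) or 10 points (regions). The tests were run on simulated reads drawn independently for each cytosine. That check did not cover neighbouring cytosines that lie on one read. Region levels are means over cytosines; their tests sum reads. Loci and bodies of like size had a cytosine count within 1.5 times the gene's. Spans and promoters came from RefSeq GRCm38.p6; all 192 cytosines in the promoters lay on reference CpGs. Of the 9 genes 8 had a promoter entry, not Scd1. Named were all called features, and per locus the largest cluster difference and the largest single rise and fall at 10 reads or more; from the lists, genes with a called end and the 2 with the largest end difference. The members and lists were chosen with earlier results of these data known; the promoter windows and the carbohydrate response element search were added after the data were seen. Alternatives were the read minimum, strands, halved counts, thinning, cluster gap, size threshold, window width, weighting and the independence of neighbouring cytosines.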

Additional observations from a re-analysis of the deposited data

How the results depend on the processing

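No paired analysis was possible because each group has 1 library and no replicate number. Of 113 alternatives for the counts and locus means, 79 gave a value near the reported one. Locus means made up 63 of the 113, and 55 of those stayed near. The 79 also include counts that were 0 and stayed 0. The 6 called clusters (1 higher, 5 lower) became 3 with at least 10 reads (1 higher, 2 lower), 1 with at least 20 reads (0 higher, 1 lower), 2 with counts halved (0 and 2), 3 on thinning (0 and 3) and 0 with reads divided by cytosines (0 and 0). The 1 higher cluster was also lost (0) with gaps of 200 bp and with a threshold of 20 points. The 1 called cytosine became 2 with at least 10 reads, adding position 135114140 of Mlxipl, and 0 on halving and on thinning. The 1 called part, the Scd1 body, became 0 with at least 20 reads, where fewer cytosines were tested, and 0 with reads divided by cytosines. The 1 called regulator end, in Usf1, became 0 with at least 10 reads, at least 20 reads, strands summed, halving and thinning. Read minimums, halving, thinning and division leave fewer reads or cytosines by construction; for the other settings the cause was not tested.

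With each read weighted equally, the locus differences became 1.36 (Acaca), −2.92 (Acacb), 1.40 (Elovl6), −0.0443 (Fasn), 2.38 (Mlxipl), −0.472 (Scd1), −1.65 (Gpam), −0.722 (Pklr) and 1.54 points (Srebf1). With at least 20 reads, Acacb became −4.37 points, Scd1 reversed to 0.0671, and Pklr and Gpam changed sign, to −1.39 and 0.470 points. The Pklr cluster with the largest difference reversed to 2.98 points with gaps of 200 bp, which join it to other cytosines; the cause was not tested beyond that. Of 77 alternatives for named clusters 60 kept direction and side of the threshold. That count includes clusters that were not called and so had no call to lose. The called clusters of Fasn kept their call in 7 of 8 and 6 of 7 alternatives. That of Mlxipl kept it in 4 of 6, that of Acacb in 3 of 7, and those of Scd1 in 2 of 6 and 2 of 5. The median depth at these genes was 14 and 15 reads per cytosine, which limits the precision of single cytosines.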
